A study of Mus musculus with 2 samples.

Results

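The 9 genes described here encode secreted proteins of bone morphogenetic protein (BMP) signaling, namely the ligands *Bmp2*, *Bmp3*, *Bmp4*, *Bmp5*, *Bmp6* and *Bmp7* and the antagonists *Nbl1*, *Grem1* and *Chrdl1*. They were picked by symbol among the 19465 genes in the deposited Visium counts, and all 9 were found, each under a symbol that no other gene carried. Their unique molecular identifiers (UMIs, each counting 1 captured molecule) were compared between the Control and the Loaded fracture site and between the bone and the tissue around it.

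The 2 sections came from the femurs of female bone cell reporter mice, in which eGFP marks *Ibsp* and mCherry marks *Acp5*, and both groups carried these alleles. Both mice received a mid-diaphyseal femoral defect of 0.68 mm at 12 weeks of age, stabilized with an external fixator, and were euthanized at 17 weeks, 5 weeks after surgery. From week 3 to week 5, the Loaded mouse received cyclic mechanical loading through the fixator 3 times per week, whereas the Control mouse received sham sessions without load. With 1 section in each group, section, mouse and treatment cannot be told apart, no test was run, and all intervals given are 95% intervals that cover counting error only.

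BMP ligands are dimeric growth factors that bind type I and type II serine/threonine kinase receptors, which phosphorylate SMAD1, SMAD5 and SMAD9. These enter the nucleus with SMAD4 and induce target genes such as the *Id* genes. In the skeleton, BMP2, BMP4, BMP6 and BMP7 can induce bone formation, BMP3 is known as an inhibitor of BMP signaling that osteoblasts and osteocytes make, and extracellular antagonists such as NBL1 (also called DAN), gremlin 1 and chordin-like 1 bind ligands and keep them from their receptors.

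Each section was divided into 3 zones. Bone spots were those whose barcodes the study lists for bone at the fracture site (131 spots in Control and 146 in Loaded). The rim held the spots within 250 μm of a bone spot (253 and 264), and the remaining spots made up the rest of the section (1514 and 1021). The median number of UMIs per spot was between 2132 and 3478 in the 6 zones. Levels are given as normalized UMIs per 100 spots, that is, the UMIs of a zone divided by the summed scran size factors of its spots. They compare 1 gene between zones. They do not compare genes with each other, since each gene is captured by its own probes. A spot is a small region that can hold several cells, so that fewer cells of a type and less RNA per cell cannot be told apart. The bone spots of both sections carried markers of osteoblasts, but were mixed with other tissue. Muscle genes (a list of 23) made up 16.5% of the UMIs in Control bone and 8.50% in Loaded bone, 11 osteoblast genes made up 2.11% and 6.86%, and 8 genes of fibroblasts and periosteum made up 0.317% and 0.168%, respectively. Every gene of these 3 lists had UMIs in both bone regions, whereas of 8 chondrocyte genes 4 were at 0 in Control bone and 3 in Loaded bone. A list of 6 osteocyte genes marked Loaded bone more than Control bone. It made up 0.0846% of the UMIs in Loaded bone, against 0.0100% in the remaining Loaded spots. In Control bone it made up 0.0179%, with 1 gene at 0, against 0.0131% in the remaining Control spots.

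Of the 9 genes, *Nbl1* was by far the most often counted, with 4216 UMIs in the Control section and 1693 in the Loaded section. The 6 ligands together gave 38 UMIs in Control bone and 41 in Loaded bone. At this depth, only 5 of the 9 genes reached 10 UMIs over both bone regions. Of these 5, *Bmp3* was at least 2-fold higher in Loaded bone, where 13.2% of all 10003 genes with as many UMIs lay as high. *Nbl1* and *Chrdl1* were at least 2-fold lower, where 8.11% of all genes lay as low. *Bmp2* and *Bmp6* differed less. The median log2 ratio of the 5 genes was −0.23, and that of all genes was 0.12.

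**Figure D1:**
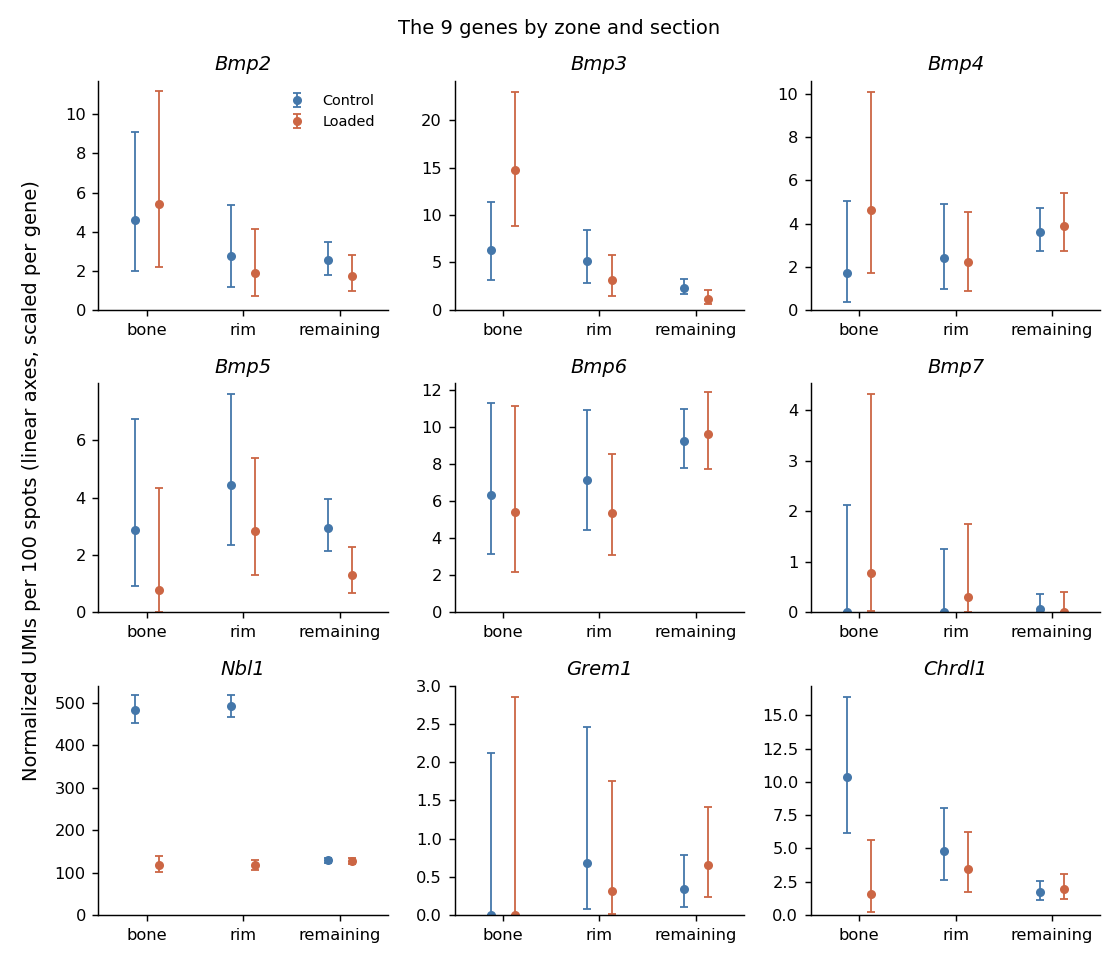
Level of each of the 9 genes (y axis, normalized UMIs per 100 spots, linear and scaled per gene) in bone, rim and remaining spots of the Control and the Loaded section, with exact Poisson 95% intervals as bars. *Nbl1* stood at 485 and 493 in Control bone and rim and between 118 and 129 in the other 4 zones, and the intervals of each ligand overlapped between the sections in every zone.

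*Nbl1* (ENSMUSG00000041120, minus strand, chr4:139082284-139092993 in GRCm38) encodes a secreted antagonist of the DAN family. In the Control section it had 841 UMIs in bone, 1444 in the rim and 1931 in the remaining spots. In the Loaded section the corresponding numbers were 153, 374 and 1166. The normalized level was 485 (452 to 518) in Control bone and 493 (468 to 519) in the Control rim, against 129 (123 to 135) in the remaining spots. In the Loaded section it was 119 (100 to 139) in bone, 118 (106 to 131) in the rim and 127 (119 to 134) in the remaining spots. Control bone and its rim thus stood apart from the other 4 zones, and the remaining spots of both sections were level when all of them were summed.

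The ratio of Loaded over Control gave the size of this difference. The log2 ratio of *Nbl1* was −2.03 (−2.29 to −1.78) in bone, which corresponds to a 4.09-fold lower level in Loaded bone. In the rim it was −2.06 (−2.23 to −1.90), and in the remaining spots it was −0.03 (−0.13 to 0.08). Within the Control section, *Nbl1* was higher in bone than in the remaining spots, with a log2 ratio of 1.91 (1.79 to 2.03), and likewise in the rim (1.93). Within the Loaded section both log2 ratios were −0.10. The muscle-rich part of the remaining spots, where muscle genes made up at least 10% of the UMIs, had 99.9 (94.3 to 106) normalized UMIs per 100 spots in Control and 103 (95.2 to 112) in Loaded. The other remaining spots were not level, with 242 (225 to 260) in Control and 167 (154 to 182) in Loaded. Muscle genes made up 32.3% of the UMIs in all remaining spots of Control and 20.3% in those of Loaded.

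The difference was also seen as the share of spots in which *Nbl1* was detected. After every spot was thinned to 1000 UMIs, 61.8% of the Control bone spots (52.9 to 70.2) and 30.5% of the Loaded bone spots (22.8 to 39.2) had an *Nbl1* UMI. In muscle-rich spots away from the bone these shares were 20.7% and 19.9%, so that the share in Loaded bone was closer to this comparison tissue than that in Control bone. The median depth before thinning was 3478 and 2769 UMIs in bone and 6126.5 and 3542 in muscle-rich spots. Thinning left out 15 Loaded bone spots and no Control bone spot, and without it the shares in bone were 90.1% and 49.3%. The highest number of *Nbl1* UMIs in a single spot was 43 in Control bone and 8 in Loaded bone. The 14 Control bone spots with the most *Nbl1* UMIs held 41.9% of them, and the 15 such Loaded spots held 45.1%. The median bone spot held 3 *Nbl1* UMIs in Control and 0 in Loaded. Such shares depend on how many UMIs a spot holds, so they do not compare how concentrated the UMIs were.

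**Figure D2:**
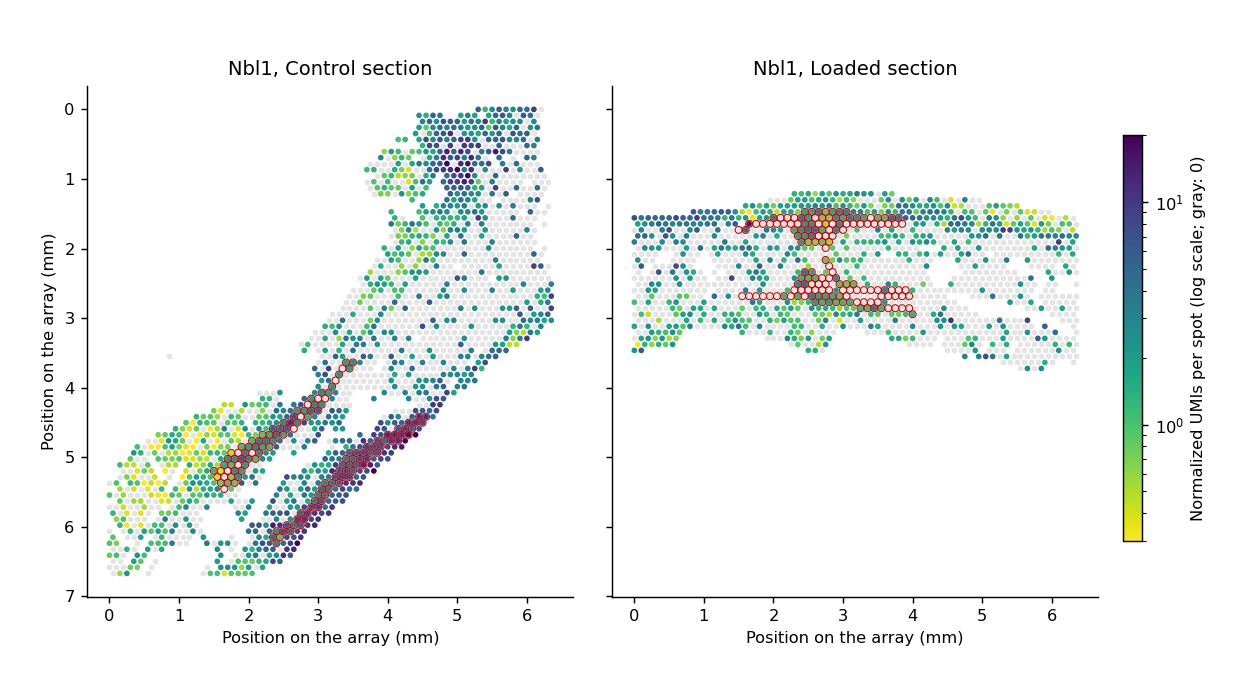
Map of *Nbl1* in both sections, each point 1 spot at its position on the capture array (axes in mm), colored by normalized UMIs per spot on a log scale, with spots at 0 in gray and bone spots circled in red. High values followed the lower cortex of the Control section and the tissue beside it, and a second group lay near the upper end of that section, far from the bone.

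The high level in Control bone lay in 1 of its cortices. On the array, each bone region consisted of an upper and a lower cortex along the shaft, and each was divided into a left and a right part. In the lower Control cortex, *Nbl1* was at 562 normalized UMIs per 100 spots in the left part (168 UMIs) and 742 in the right part (558 UMIs). In the upper Control cortex it was at 167 (135 to 203) in the left part and 176 (106 to 275) in the right part. The 4 Loaded blocks were at 145 and 86.7 in the upper cortex and at 157 and 81.1 in the lower cortex. Blocks were set by position, and their tissue differed. Muscle genes made up 29.6% (left) and 13.7% (right) of the UMIs in the upper Control cortex. In the lower Control cortex they made up 8.42% and 6.05%. Osteoblast genes made up 0.641% and 2.33% in the upper and 1.30% and 4.00% in the lower Control cortex. In the remaining Control spots they made up 0.709%. Whether the *Nbl1* level of a block goes with its muscle was not tested. Without the right part of the lower Control cortex, the log2 ratio of *Nbl1* in Loaded over Control bone was −1.28 in place of −2.03. All 4 Loaded blocks lay below all 4 Control blocks, but the highest Loaded block (157, 94.7 to 246) and the lowest Control block were close and their intervals overlapped. *Nbl1* and *Chrdl1* were the 2 of the 5 genes with all Loaded blocks below all Control blocks, as 1.95% of all 10003 genes were. None had them above, where 3.92% of all genes lay. For *Chrdl1* the order of the blocks rests on 1 to 9 UMIs in a Control block and 0 or 2 in a Loaded block. Its intervals overlapped between the sections, as for the Control upper cortex right (0.235 to 51.6) and the Loaded upper cortex left (0.402 to 12.0).

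Markers of fibrous tissue moved with this pattern. The list of fibroblast and periosteum genes made up 0.391% and 0.537% of the UMIs in the lower Control cortex, and 0.106% and 0.207% in the upper Control cortex. In the 4 Loaded blocks it made up between 0.112% and 0.202%. Per 1000 UMIs of that list, *Nbl1* had 514 and 498 UMIs in the lower and 402 and 238 in the upper Control cortex, against 306 and 121 in the lower and 296 and 241 in the upper Loaded cortex, so that on this scale the blocks of the sections overlapped. Over all bone spots, *Nbl1* had 476 UMIs per 1000 list UMIs in Control and 223 in Loaded, a log2 ratio of −1.09 (−1.35 to −0.84). In the rim these values were 535 and 194, with a log2 ratio of −1.46 (−1.63 to −1.30). Both differences were thus smaller, with intervals that leave out 0, when the fibroblast list took the place of the size factors. Such a ratio to 1 list cannot tell fewer cells of a type from less RNA per cell. The ratio of Control bone over remaining spots was 0.59 on this scale, in place of 1.91. This scale was chosen after the values were seen.

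**Figure D3:**
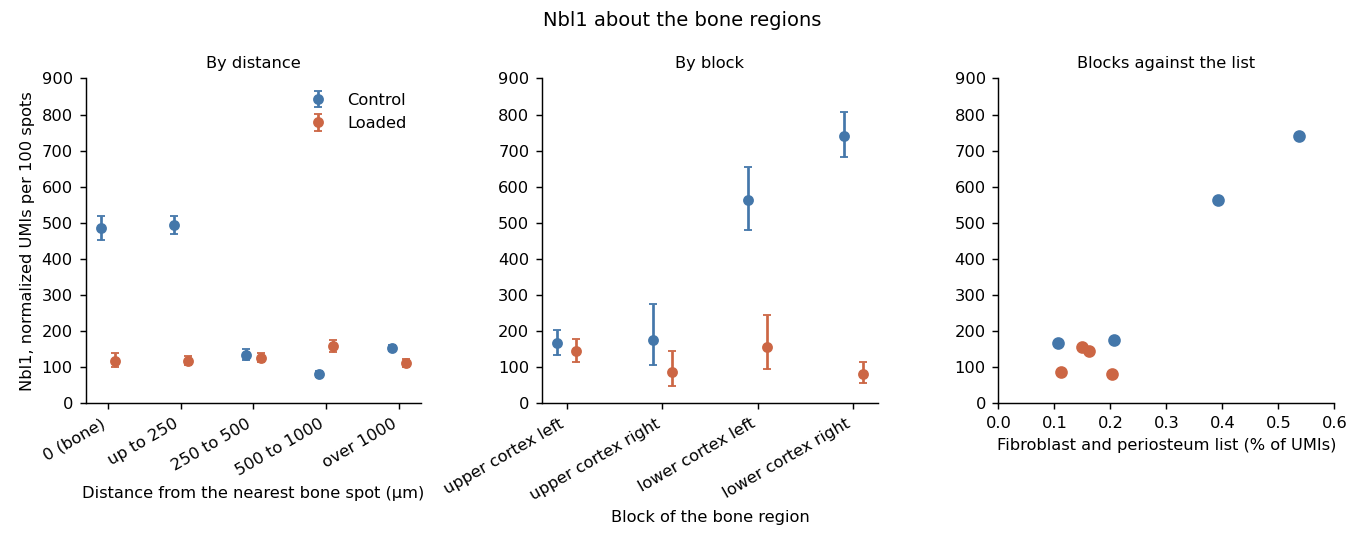
*Nbl1* (y axes, normalized UMIs per 100 spots) by distance from the nearest bone spot, by block of the bone region and, for the same 8 blocks, against the share of UMIs from the fibroblast and periosteum list (x axis, %), with exact Poisson 95% intervals as bars in the first 2 panels. Both blocks of the lower Control cortex stood apart in *Nbl1* (562 and 742) and in the list (0.391% and 0.537%), and the other 6 blocks lay together.

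Around the bone, the high *Nbl1* level of the Control section ended within the first 250 μm. It was at 135 (121 to 150) between 250 and 500 μm from the bone, at 81.6 between 500 and 1000 μm and at 153 beyond. In the Loaded section the level was between 111 and 158 at every distance, with the highest value between 500 and 1000 μm. On both sections, the rim outside the shaft exceeded the rim between the cortices. The level was 568 outside (537 to 601) and 286 between the cortices (244 to 333) in Control, and 142 outside (127 to 159) and 57.9 between them (43.6 to 75.4) in Loaded.

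Over each whole section, bone and rim included, *Nbl1* went with fibrous tissue and was low in muscle. In the tenth of the spots with the highest share of fibroblast and periosteum genes, its level exceeded that of the other spots by a log2 ratio of 2.60 (2.51 to 2.69) in Control and 1.49 (1.35 to 1.64) in Loaded. For tendon and fibrous tissue these ratios were 2.09 and 1.55, for Schwann cells 1.88 and 0.83, and for macrophages 1.61 and 0.96. Of the 190 Control spots richest in fibroblast genes, 49 were bone and 54 rim spots. The numbers were 39 and 57 for Schwann cells and 25 and 25 for tendon. Of the 143 Loaded spots richest in fibroblast genes, 13 were bone and 33 rim spots. The Control ratios therefore partly restate the high level in Control bone and rim. The ratios without these zones were not tested. In the spots richest in muscle genes *Nbl1* was lower, by −1.90 in Control and −1.32 in Loaded, as it was with erythroid genes (−0.74 and −0.89) and granulocyte genes (−0.71 and −1.66). The ratios for osteoblasts (1.35 and 0.41), osteoclasts (1.05 and 0.64) and endothelium (1.23 and 0.16) were smaller in Loaded. Those for osteocytes (0.06 and 0.04), chondrocytes (0.33 and −0.05) and adipocytes (0.03 and −0.27) were near 0 in both sections.

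The genes whose pattern over the sections was most like that of *Nbl1* were *Mgp*, *Igfbp7* and *Fn1* with tiles of 500 μm. With tiles of 800 μm they were *Mgp*, *Fn1* and *Thbs3*, and *Igfbp7* ranked 8. *Mgp* encodes matrix Gla protein, an inhibitor of calcification, *Igfbp7* an insulin-like growth factor binding protein and *Fn1* fibronectin. Across square tiles of 500 μm, 79 in Control and 61 in Loaded, and among 4274 genes compared, the Pearson correlation was 0.843 and 0.825 for *Mgp*, 0.840 and 0.762 for *Igfbp7*, and 0.896 and 0.758 for *Fn1*. Tiles of a section share a library and differ in depth, so these values describe the pattern only. The log2 ratio of Loaded over Control in bone was −1.56 (−1.69 to −1.44) for *Mgp*, −0.91 (−1.06 to −0.76) for *Igfbp7* and −0.74 (−0.91 to −0.57) for *Fn1*, so that each of them was also lower in Loaded bone. These genes were picked for a pattern like that of *Nbl1* over each section. The choice favors a shared direction in bone, which is therefore not a separate result. Only *Mgp* was at least 2-fold lower, as 8.11% of all genes were. In the remaining spots *Mgp* was higher in Loaded (1.02, 0.96 to 1.07), unlike *Nbl1* (−0.03). There *Igfbp7* was at 0.05 (−0.01 to 0.12) and *Fn1* at 0.23 (0.15 to 0.30).

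**Figure D4:**
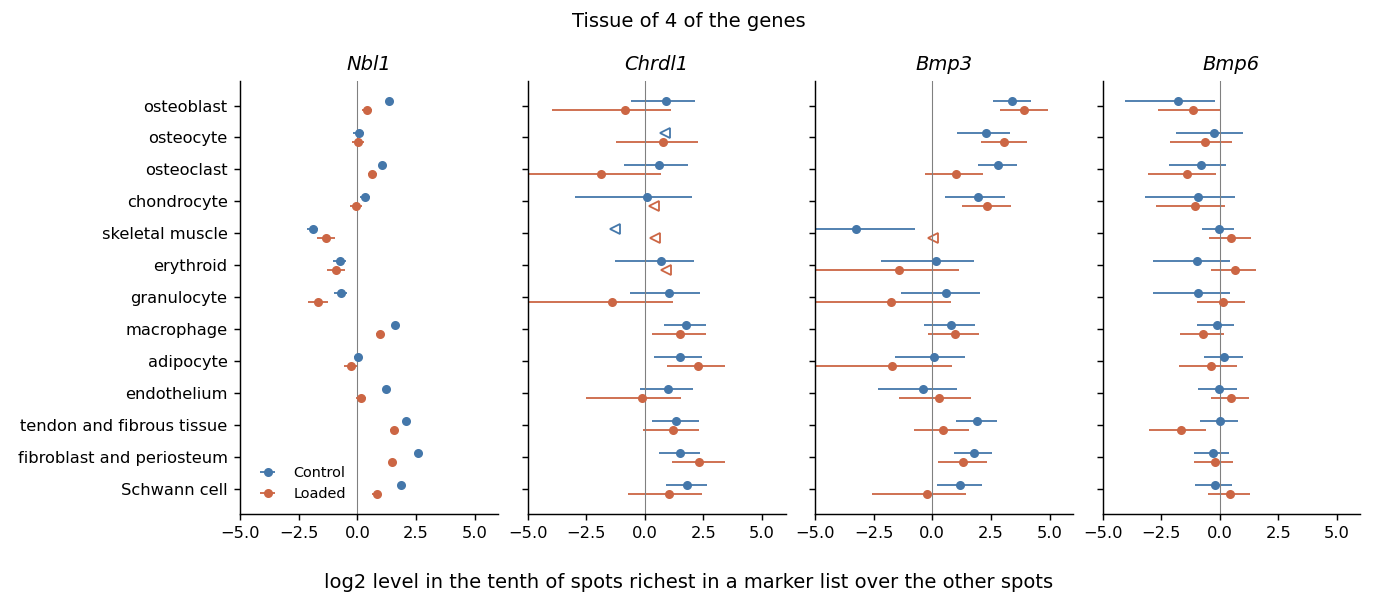
Log2 ratio (x axes) of the level of *Nbl1*, *Chrdl1*, *Bmp3* and *Bmp6* in the tenth of the spots with the highest share of UMIs from each of 13 marker lists over the level in the other spots of the section, with exact conditional 95% intervals as bars and upper bounds as open triangles where the tenth held 0 UMIs. *Nbl1* was highest with fibroblast and tendon genes and *Bmp3* with osteoblast genes, whereas *Bmp6* showed no ratio above 0.66.

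*Chrdl1* (ENSMUSG00000031283, minus strand, chrX:143285674-143394262) encodes chordin-like 1, a relative of chordin that binds BMP ligands. It was counted far less often, with 18, 14 and 26 UMIs in Control bone, rim and remaining spots and 2, 11 and 18 in the corresponding Loaded zones. Its level was 10.4 normalized UMIs per 100 spots (6.15 to 16.4) in Control bone and 1.55 (0.188 to 5.60) in Loaded bone, and these intervals did not overlap. The log2 ratio of Loaded over Control was −2.74 (−5.89 to −0.68) in bone, but −0.46 in the rim and 0.17 in the remaining spots. In Control, the left and right parts held 5 and 9 UMIs in the lower and 3 and 1 in the upper cortex, and the 2 Loaded UMIs lay in 1 block, the upper cortex left. A block with 0 UMIs allowed up to 30.5 normalized UMIs per 100 spots. Within the Control section, *Chrdl1* was higher in bone than in the remaining spots (log2 ratio 2.58, 1.62 to 3.50), and in the Loaded section the value was −0.34. The Control value was 1.26 (0.30 to 2.18) per UMI of the fibroblast list and 0.92 with only spots below a muscle share of 5%. Like *Nbl1*, it was higher in spots rich in fibroblast genes, by 1.52 (0.61 to 2.37) in Control and 2.29 (1.17 to 3.40) in Loaded. Unlike *Nbl1* (0.03 and −0.27), it was also higher with adipocyte genes, by 1.48 (0.39 to 2.45) and 2.26 (0.96 to 3.44). *Chrdl1* had 0 UMIs in the tenth of the spots richest in muscle genes in both sections. The upper bound of that log2 ratio was −1.28 in Control but 0.44 in Loaded. Per UMI of the fibroblast list, its log2 ratio in bone was −1.81 (−4.96 to 0.26), an interval that holds 0.

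*Grem1* (ENSMUSG00000074934, minus strand, chr2:113746164-113758646) encodes gremlin 1, an antagonist of BMP2 and BMP4 in particular. It had 0 UMIs in both bone regions, which allows up to 2.13 normalized UMIs per 100 spots in Control and 2.86 in Loaded. The rims held 2 and 1 UMIs and the remaining spots 5 and 6, so that a difference was not detectable at this depth.

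*Bmp3* (ENSMUSG00000029335, plus strand, chr5:98854415-98884396) was the ligand with the clearest place in the bone. It had 11, 15 and 35 UMIs in Control bone, rim and remaining spots and 19, 10 and 11 in the Loaded zones. Its level in bone was 6.34 normalized UMIs per 100 spots (3.16 to 11.3) in Control and 14.7 (8.86 to 23.0) in Loaded, with a log2 ratio of 1.22 (0.07 to 2.43). In the rim the ratio was −0.70 and in the remaining spots −0.97, both with intervals that held 0. *Bmp3* was higher in bone than in the remaining spots in both sections, with a log2 ratio of 1.44 (0.31 to 2.45) in Control and 3.62 (2.48 to 4.84) in Loaded.

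*Bmp3* went with osteoblast genes. In the tenth of the spots richest in them it was at 21.3 normalized UMIs per 100 spots in Control and 17.1 in Loaded, and the log2 ratio to the other spots was 3.41 (2.61 to 4.19) and 3.89 (2.90 to 4.94). Of these spots, 14 of 190 were bone spots in Control, whereas 92 of 143 were in Loaded. In the spots richest in osteocyte genes the ratios were 2.28 and 3.07, but 0 of these 190 spots were bone spots in Control, whereas 69 of 143 were in Loaded. The Control value thus does not describe the bone region. *Bmp3* was also higher with osteoclast genes (2.80 in Control and 1.02, with an interval that holds 0, in Loaded) and chondrocyte genes (1.94 and 2.33). The osteoblast list was itself higher in Loaded bone (6.86% of the UMIs against 2.11%). Per UMI of that list, the ratio of *Bmp3* in Loaded over Control bone turned to −0.47 (−1.61 to 0.75), and the ratios of bone over remaining spots were 0.48 (−0.65 to 1.49) in Control and 0.76 (−0.38 to 1.98) in Loaded, all with intervals that hold 0. The ratio of Loaded over Control also turned, to −0.10, where only spots with a muscle share below 5% were kept. That value rests on 5 UMIs in 16 Control spots and 6 UMIs in 30 Loaded spots. Its 11 Control UMIs lay in the lower cortex right (9) and the upper cortex right (2), with 0 in both left parts, and its Loaded UMIs in the lower cortex right (10) and the upper cortex left (9), so that the blocks overlapped. Without the lower cortex right of Control the ratio was 2.86, and without that of Loaded it was 0.68. With every spot weighted equally it was 0.16.

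*Bmp2* (ENSMUSG00000027358, plus strand, chr2:133552159-133562885), a ligand required for fracture repair in mice, had 8, 8 and 38 UMIs in Control bone, rim and remaining spots and 7, 6 and 16 in the Loaded zones. The log2 ratio of Loaded over Control in bone was 0.23 (−1.46 to 1.89), an interval that allows a difference of more than 2-fold either way. *Bmp2* was higher in bone than in the remaining spots of the Loaded section (1.64, 0.12 to 3.00), and in the Control section the value was 0.86 (−0.45 to 1.98). It was higher in spots rich in osteoblast genes, by 2.79 (1.85 to 3.67) in Control and 1.84 (0.53 to 3.04) in Loaded.

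*Bmp6* (ENSMUSG00000039004, plus strand, chr13:38345107-38500302), which is also known as a regulator of iron balance in the liver, was the ligand with the most UMIs. It had 11, 21 and 139 UMIs in the Control zones and 7, 17 and 89 in the Loaded zones, and it was not concentrated in bone. The log2 ratio of bone over remaining spots was −0.55 (−1.59 to 0.33) in Control and −0.83 (−2.19 to 0.27) in Loaded, and that of the rim over remaining spots was −0.37 and −0.85 (−1.69 to −0.09). In muscle-rich remaining spots it was at 10.3 normalized UMIs per 100 spots (8.53 to 12.3) in Control and 11.3 (8.71 to 14.3) in Loaded, against 5.52 and 6.86 in the other remaining spots. Other measures of this excess were mixed. In the tenth of the spots richest in muscle genes, its log2 ratio was −0.04 (−0.74 to 0.60) in Control and 0.48 (−0.48 to 1.32) in Loaded. After thinning to 1000 UMIs, 1.81% of muscle-rich and 1.98% of all remaining Control spots had a *Bmp6* UMI. In Loaded these shares were 1.68% and 1.65%. Thinned to 500 UMIs, they were 1.60% and 1.06% in Control and 1.76% and 1.67% in Loaded. Without thinning they were 11.0% and 7.93% in Control and 9.88% and 7.74% in Loaded. Muscle-rich spots were deeper, however (median 4970 UMIs against 2132 in Control and 3416 against 2500 in Loaded). All remaining spots include the muscle-rich ones, which narrows these contrasts. *Bmp6* was lower in spots rich in osteoblast genes, by −1.77 (−4.06 to −0.20) in Control and −1.16 (−2.64 to 0.01) in Loaded, the opposite of *Bmp3* and *Bmp2*. The ratio of Loaded over Control was −0.23 (−1.83 to 1.27) in bone and 0.06 (−0.34 to 0.45) in the remaining spots.

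The other ligands were sparse in bone. *Bmp4* (ENSMUSG00000021835, minus strand, chr14:46383520-46390669), a close relative of *Bmp2*, had 3, 7 and 54 UMIs in the Control zones and 6, 7 and 36 in the Loaded zones. *Bmp5* (ENSMUSG00000032179, plus strand, chr9:75775364-75900310), a ligand needed for normal skeletal form in mice, had 5, 13 and 44 UMIs in Control and 1, 9 and 12 in Loaded. In the remaining spots, *Bmp5* was at 2.94 normalized UMIs per 100 spots (2.14 to 3.95) in Control and 1.30 (0.673 to 2.28) in Loaded, a log2 ratio of −1.17 (−2.23 to −0.23), which was −0.79 with library totals. *Bmp7* (ENSMUSG00000008999, minus strand, chr2:172868012-172940321), used as a bone graft factor in surgery, had 1 UMI in the Control section and 2 in the Loaded section, too few for any comparison. Summed over the 6 ligands, the log2 ratio of Loaded over Control was 0.54 (−0.14 to 1.21) in bone, −0.47 (−1.03 to 0.08) in the rim and −0.22 (−0.51 to 0.05) in the remaining spots. The summed ligands were higher in bone than in the remaining spots of the Loaded section (0.83, 0.30 to 1.34), and in Control the value was 0.07 (−0.45 to 0.56). These sums partly restate *Bmp3*. It gave 19 of the 41 ligand UMIs in Loaded bone, 11 of the 164 in the remaining Loaded spots and 11 of the 38 in Control bone. The sums without *Bmp3* were not tested. Since each gene is captured by its own probes, a sum is not a total amount of ligand.

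Outside bone, the number of the 9 genes that differed by 2-fold between the sections was near the share among all genes. In the rim, 7 genes had 10 UMIs, 1 of them (*Nbl1*) was at least 2-fold lower in Loaded, and none was higher, while 6.58% of all 11704 genes were lower and 7.42% higher. In the remaining spots, 1 of 8 genes (*Bmp5*) was lower and none higher, while 5.6% of all 15485 genes were lower and 6.78% higher. Within the Control section, 3 of 7 genes were at least 2-fold higher in bone than in the remaining spots (*Bmp3*, *Nbl1* and *Chrdl1*, beside 10.8% of all genes) and 1 was lower (*Bmp4*, with an interval that holds 0, beside 11.5%). The same 3 genes were higher in the Control rim (beside 9.57%), though *Chrdl1* was at −0.10 there with only spots below a muscle share of 5%, and none was lower (beside 7.45%). Within the Loaded section, 2 of 7 genes were higher in bone (*Bmp2* and *Bmp3*, beside 9.28%) and none was lower (beside 9.75%). In the Loaded rim, 2 of 7 were higher (*Bmp3* and *Bmp5*, the latter with an interval that holds 0, beside 4.63%) and none was lower (beside 6.02%). The ratios within a section share its remaining spots, and each bone and rim region enters both kinds of ratio.

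The rest of the pathway was described with 5 lists of other ligands, other antagonists and extracellular modulators, receptors and coreceptors, SMADs and their regulators, and target genes. Among 10 other ligands, 3 had 10 UMIs over both bone regions, of which 1 was at least 2-fold higher in Loaded bone (*Bmp8a*, 14 UMIs against 7) and none lower, beside 13.2% and 8.11% of all genes. Among 19 other antagonists and modulators, 10 had enough UMIs, 1 was higher and 1 was lower, which is near the shares of 13.2% and 8.11% among all genes. *Sost*, which encodes sclerostin, a product of osteocytes best known as a Wnt antagonist, had 74 UMIs in Loaded bone and 19 in Control bone, with a log2 ratio of 2.39 (1.65 to 3.20). The direction differed in the remaining spots, where *Sost* had 109 UMIs in Loaded and 378 in Control and was at least 2-fold lower in Loaded. Within the Control section it was at least 2-fold lower in bone than in the remaining spots. *Fst*, which encodes follistatin, a binder of activins and some BMPs, had 20 and 68 UMIs, with a log2 ratio of −1.34 (−2.14 to −0.60). The median of the 10 genes was −0.40, beside 0.12 for all genes. The log2 ratios of *Nbl1* and *Chrdl1* lay below each of these 10. Their intervals (−2.29 to −1.78 and −5.89 to −0.68) overlapped that of *Fst*, the lowest of the 10. *Nog*, which encodes noggin, had 1 UMI in Loaded bone and 2 in Control bone.

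Of 11 receptors and coreceptors, 10 had enough UMIs, 1 was higher in Loaded bone and 3 were lower, beside 13.2% and 8.11% of all genes. *Bmpr2*, which encodes a type II receptor of BMPs, had 5 UMIs in Loaded bone and 27 in Control bone (log2 ratio −2.01, −3.74 to −0.61). *Rgma*, a coreceptor, had 12 and 36 UMIs (−1.16, −2.24 to −0.18). *Bmpr1a*, a type I receptor, had 9 and 26 UMIs (−1.10, −2.38 to 0.04). *Bambi*, a pseudoreceptor that inhibits signaling, had 19 and 5 UMIs (2.35, 0.88 to 4.13). None of the 6 SMADs and regulators with enough UMIs was past 2-fold, among them *Smad1* (0.60, −0.05 to 1.25) and the inhibitory *Smad7* (0.30, −0.60 to 1.20).

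Of 11 target genes, 9 had enough UMIs, 3 were at least 2-fold higher in Loaded bone and 1 was lower, beside 13.2% and 8.11% of all genes. The 3 were the osteoblast transcription factors *Dlx5* (55 UMIs against 15, log2 ratio 2.30, 1.46 to 3.23), *Sp7* (43 against 13, 2.15, 1.23 to 3.17) and *Runx2* (96 against 55, 1.23, 0.74 to 1.74), and *Sp7* and *Runx2* are also on the osteoblast marker list, which was higher in Loaded bone as a whole. *Id4* was the lower gene, with 6 and 18 UMIs and an interval that holds 0. *Id3* had 334 UMIs in Loaded bone and 228 in Control bone, with a log2 ratio of 0.98 (0.73 to 1.23), just short of 2-fold, and *Id1*, with 66 and 68 UMIs, had a log2 ratio of 0.38 (−0.13 to 0.89). *Id1* and *Id3* are direct targets of SMAD1 and SMAD5 that many cell types express.

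**Figure D5:**
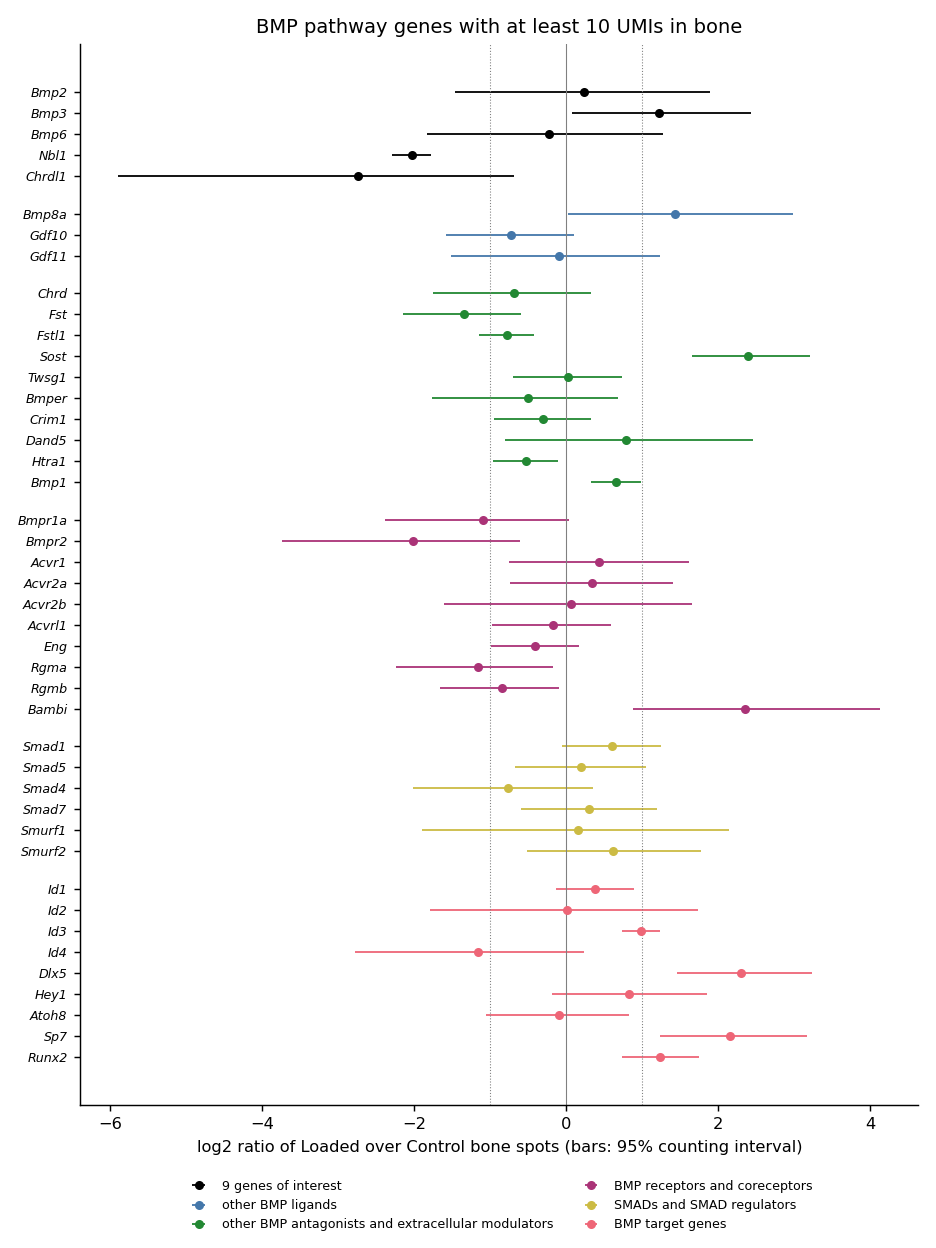
Log2 ratio of Loaded over Control bone spots (x axis) for the genes of interest and the genes of 5 BMP pathway lists that had at least 10 UMIs over both bone regions and UMIs in each, with exact conditional 95% intervals as bars and dotted lines at a 2-fold difference. *Nbl1* (−2.03), *Chrdl1* (−2.74) and *Bmpr2* (−2.01) lay lowest, and *Sost* (2.39), *Bambi* (2.35) and *Dlx5* (2.30) highest.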

How the data were processed

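Visium libraries of 2 FFPE femur sections were measured, 1 Control and 1 Loaded. The authors obtained UMI counts from SpaceRanger (2.0.0 per the file headers, mm10 per the submitters' processing notes), and the deposited values are these raw counts, whole numbers without normalization. The sections hold 9002147 UMIs in 1962 spots (Control) and 4910716 in 1436 spots (Loaded). Spots with at least 500 UMIs and 250 genes were kept (1898 and 1431), as in the study's methods. Scran 1.30.0 (R 4.3.3) gave size factors over these spots. The study's test across spots was not repeated, because spots of a section are not replicates. Ratios of summed counts carry exact conditional binomial intervals, levels exact Poisson intervals and shares of spots exact binomial intervals (Python 3.11.15, scipy 1.17.1). "At least 2-fold" counts genes with at least 10 UMIs over the zones compared. A sum of 0 was set to 3 UMIs for a bound, which must lie past 2-fold to count. The shaft axis of a section was the first principal axis of its bone spots, by which blocks and rim sides were set. Left and right are those of the array. Tissue was described with 13 marker lists, the shares of which leave out the 9 genes. Gene coordinates are from GENCODE M21 (GRCm38).

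Besides the 9 genes, the text names pathway genes with at least 30 UMIs over both bone regions that were past 2-fold with an interval leaving out 0 (at most 3 in each list), and the 3 genes most like *Nbl1*. *Bmp8a*, *Bambi*, *Bmpr1a*, *Id4*, *Nog*, *Smad1*, *Smad7*, *Id1*, *Id3* and *Thbs3* were named after their values were seen. The genes and lists were chosen with earlier results of these data known. Ratios and intervals were tested on simulated counts. Other settings tried were TMM factors (edgeR 4.0.16), library totals, scran factors from the zones compared, no spot filter, equal spot weights, only spots with under 5% muscle UMIs, each block left out, rims of 150 and 350 μm, gene minimums of 1 and 50 UMIs, thinning to 500 UMIs or none, tiles of 800 μm and, chosen after seeing the data, marker lists as denominators. The barcodes of both sections come from 1 array design, so that shared barcodes do not mark shared spots.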

Additional observations from a re-analysis of the deposited data

How the results depend on the processing

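Of the alternative values, 429 stayed within the interval (or within 1.5 times) of the reported one, 100 moved and 3 reversed. The log2 ratio of *Nbl1* in bone, Loaded over Control, was −2.99 with only spots under 5% muscle UMIs, and −1.09 and −0.93 per UMI of the fibroblast and tendon lists. With 1 block left out it was between −2.44 and −1.28, the latter without the lower cortex right of Control. In the rim it was −1.90 with library totals, −3.24 under 5% muscle, −1.77 with a rim of 350 μm, and −1.46 and −1.60 per list UMI. In the remaining spots it was 0.35 with library totals, which moved the median of all genes there from 0.04 to 0.42 (and that for Control bone over remaining spots from −0.09 to 0.53), and −0.59 with equal spot weights, −0.14 under 5% muscle, and −0.24 and 0.21 per list UMI. For Control bone over remaining spots it was 2.53 with library totals, 1.53 with equal weights, 2.18 under 5% muscle, and 0.59 and 0.92 per list UMI. For the Control rim it was 2.39, 1.83 (TMM), 1.43 and 2.11, 1.76 and 1.68 with rims of 150 and 350 μm, and 0.76 and 1.12 per list UMI. For Loaded bone it was 0.16 with library totals and −0.67 under 5% muscle. For the Loaded rim it was 0.14, −0.98, and −0.47 and −0.69 per list UMI.

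*Bmp3* in bone, Loaded over Control, reversed to −0.10 under 5% muscle and to −0.47 per osteoblast list UMI, and *Chrdl1* in the Control rim over remaining spots reversed to −0.10 under 5% muscle. The *Bmp3* value under 5% muscle rests on 5 UMIs in Control and 6 in Loaded. *Chrdl1* in bone stayed between −3.84 and −1.25, where −1.25 is an upper bound and not a ratio. It was obtained without the upper cortex left of Loaded, which held both Loaded UMIs, so that 0 was set to 3 UMIs.

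The number of genes at least 2-fold higher in Loaded bone fell to 0 with equal weights, under 5% muscle and without 1 of 3 blocks (Control lower cortex left, Control upper cortex left, Loaded lower cortex right), a range of 0 to 1 over blocks. The number lower was 1 under 5% muscle. In the rim 2 were lower with equal weights, under 5% muscle and with a rim of 150 μm. In the remaining spots library totals gave 1 higher and 0 lower, TMM factors 2 lower and equal weights 3 lower. Library totals also moved the median log2 ratio of all genes there from 0.04 to 0.42. For Control bone over remaining spots none (0) was lower with library totals, without a spot filter and under 5% muscle. For Loaded bone 2 were lower with equal weights, and 0 higher under 5% muscle. For the Control rim 1 was higher with equal weights, and 1 higher and 1 lower with a rim of 150 μm. For the Loaded rim 1 was higher with equal weights and with a rim of 350 μm, 0 higher under 5% muscle, and 1 lower with a rim of 150 μm. The share of all genes past 2-fold was recomputed only for the gene minimums, not for these settings. These counts therefore do not show whether the genes of interest shifted more than all genes did. The cause of the other shifts was not tested. No paired analysis was possible because each group holds 1 section. Depth limits all genes but *Nbl1*: the intervals of *Bmp2*, *Bmp5* and *Bmp6* in bone allow a 2-fold difference either way. A gene minimum of 50 UMIs lowered the share of all genes higher in Loaded bone to 7.89%.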
